A study of Mus musculus with 12 samples.

Results

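The DNA replication machinery is described here through 49 genes of the deposited expression table, chosen by gene symbol from the known parts of the replication fork. All 49 were found among the 57180 genes of the table, and all 49 passed the filter on low values that left 14426 genes for testing. They were grouped by role: 13 genes of origin licensing, 7 of the firing kinase and the CMG helicase, 9 of the polymerases, 6 of the sliding clamp and its loader, 6 of single-strand binding and strand processing, 5 of nucleotide supply and 3 that load histones or maintain methylation behind the fork. Mcm10, which binds the helicase as it becomes active, and Gmnn, whose product blocks Cdt1, were counted with licensing.

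Replication of a genome starts in the G1 phase of the cell cycle, when the origin recognition complex, Cdc6 and Cdt1 load the Mcm helicase onto DNA in an inactive form. At the start of S phase the Cdc7 kinase with its activator Dbf4 triggers the recruitment of Cdc45 and the GINS complex, which turns Mcm into the active CMG helicase, and polymerases, clamp, ligase and nucleotide-making enzymes then copy the strands. Transcription of many of these genes is under E2F factors and is highest in cycling cells, so their RNA level is widely read as a mark of proliferation.

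HC11 is an epithelial line from the mouse mammary gland, and it was used here to ask what Snail1, the zinc-finger transcription factor encoded by Snai1, does in collective migration. RNA was sequenced from 12 libraries in 4 groups of 3. Control cells at 0 h are libraries 1, 2 and 3, control cells at 36 h are libraries 1, 3 and 4, and the Snail1 KD (knockdown) cells have libraries 1, 2 and 3 at each time. All 4 groups were flow-sorted, left overnight to form aggregates in medium with serum, EGF and insulin, and placed in a migration assay for 0 h or 36 h. Control titles carry "scr", and headers of the deposited group means call the knockdown "sh_snail1". The labels do not describe the construct further or give the number of clones, nor do they name separate cultures. A p-value here therefore reflects the scatter among these libraries, which may be technical. The title of control 36 h library 4 starts with "mix", which is not explained. The deposited control 36 h mean covers libraries 1 and 3 only, and the values of library 4 are repeated in a column of their own. Library 4 was below both group mates in 10 of the 49 members and above both in 1. Whether it is independent of libraries 1 and 3 was not tested. If it is a pool, that group holds 2 independent samples. These are bulk samples, in which fewer cells in S phase and less RNA per cell cannot be told apart.

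Promoter sequences of the members were looked at because most members were lower together in the knockdown, as described below. The RefSeq promoter table (build GRCm38.p6, 250 bases before to 50 bases after each start) held 40 of the 49 members. The words TTTCCCGC, TTTGGCGC, TTTGCCGC and TTTCGCGC, which are common forms of the E2F site, were searched on both strands. 15 of the 40 members (37.5%) held at least 1 of these words, against 482 of 9790 tested genes in the table (4.92%), 704 of all 27025 genes (2.61%) and 1 of 26 mitotic genes (3.85%). In 9 members a word lay wholly before the start, and 8 of those are shown, with 25 bases on each side where the window allows. The capitals mark the word, as read 5′ to 3′ on the strand of the gene.
Mcm5 (chr8:75109331-75109388, + strand, word starting 153 bases before the start): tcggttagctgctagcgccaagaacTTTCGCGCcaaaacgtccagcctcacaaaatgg
Mcm6 (chr1:128359783-128359840, - strand, word starting 110 bases before the start): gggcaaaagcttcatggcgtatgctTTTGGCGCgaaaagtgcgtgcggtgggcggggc
Mcm7 (chr5:138172016-138172073, - strand, word starting 165 bases before the start): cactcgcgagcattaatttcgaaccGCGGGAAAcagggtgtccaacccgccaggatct
Orc1 (chr4:108579402-108579453, + strand, word starting 27 bases before the start): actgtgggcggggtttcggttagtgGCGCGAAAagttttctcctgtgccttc
Cdc6 (chr11:98907988-98908045, + strand, word starting 138 bases before the start): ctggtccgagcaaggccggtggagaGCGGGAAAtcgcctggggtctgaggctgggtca
Pola1 (chrX:93632261-93632318, - strand, word starting 138 bases before the start): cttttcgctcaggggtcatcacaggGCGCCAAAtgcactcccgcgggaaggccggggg
Rfc3 (chr5:151651209-151651243, - strand, word starting 10 bases before the start): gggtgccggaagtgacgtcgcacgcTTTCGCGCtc
Uhrf1 (chr17:56304103-56304160, + strand, word starting 185 bases before the start): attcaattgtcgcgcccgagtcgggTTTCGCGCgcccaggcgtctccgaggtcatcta
In Mcm5 and in Mcm6 a second word overlaps the first on the other strand, since the letters after the capitals complete it. The windows cover a helicase subunit with a large difference (Mcm5), members of the other licensing steps, and Pola1 and Rfc3, whose differences at 0 h did not pass the test. At 0 h, 11 of 15 members with a word and 19 of 25 without were called lower in the knockdown, where 14.6% of all tested genes were. A call is an adjusted p under 0.05 in limma, and log2 fold changes are knockdown minus control on the log2(TPM + 1) scale, where TPM is the expression per gene length and library total. The median log2 fold changes of these members were -1.34 and -1.43. Without 1 library described below, knockdown 0 h library 2, these medians were -1.13 and -1.05, so the order of the sets turned. The CHR word TTTGAA, known from genes of late cell cycle, was in 7 of 40 members (17.5%), in 14.7% of tested genes and in 19 of 26 mitotic genes (73.1%). CCAAT, the site of the factor NF-Y, was in 24 of 40 members (60%), in 43.7% of tested genes and in 20 of 26 mitotic genes (76.9%). A match is a description of letters only.

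Knockdown 0 h library 2, which is meant wherever library 2 is named without its group, stood apart. It had 14.0% of its TPM on mitochondrial genes (1.45 to 6.15% in the other 11), 12.7% on ribosomal protein genes (3.90 to 5.90%) and 10.6% on genes under 300 bases (2.32 to 5.23%). Its 49 members summed to 917 TPM, against 1760 and 1732 TPM in the other knockdown libraries at 0 h, and 45 of the 49 were below both of those. Counts of called genes and fold changes of single members at 0 h are therefore given with and without it, and calls at 36 h too, since 1 estimate of spread is shared by all groups. Its part in the results beyond these values was not tested. The target Snai1 was at 1.85 ± 0.601 TPM in control and 0.617 ± 0.158 TPM in knockdown at 0 h, and at 3.13 ± 0.688 and 0.407 ± 0.192 TPM at 36 h (mean ± SD, n = 3 each). The epithelial label was met by all 8 epithelial markers, with Krt14 at 2206 to 20984 TPM, Epcam at 214 to 1161 TPM and Cdh1 at 71.0 to 374 TPM. Of immune, fibroblast, endothelial and adipocyte markers, 1 of 7, 4 of 6, 1 of 4 and 0 of 3 passed the filter. Those that passed were Cd68 (2.11 to 14.65 TPM), Pdgfra (1.16 to 11.08), Col1a1 (1.4 to 10.27), Dcn (0.14 to 2.58), Col3a1 (0.15 to 1.56) and Pecam1 (0.41 to 6.98). Ptprc stayed at or under 0.17 TPM, Cdh5 at or under 0.02 TPM, and Dpt, Adipoq and Lep were listed at 0 in every library. Summed TPM of the 8 epithelial markers ran from 10162 to 10377 in control and 3350 to 10352 in knockdown at 0 h, and from 15984 to 18898 and 19543 to 25532 at 36 h. The 6 fibroblast markers summed to 14.4 to 17.1 and 4.70 to 15.8 TPM at 0 h, and to 12.8 to 23.3 and 7.85 to 13.5 TPM at 36 h. The 7 immune markers summed to 9.96 to 14.7 and 6.64 to 10.6 TPM at 0 h, and to 3.2 to 3.93 and 2.14 to 2.43 TPM at 36 h. The 4 endothelial markers summed to 2.97 to 3.86 and 0.49 to 3.9 TPM at 0 h, and to 3.6 to 7.07 and 4.36 to 6.82 TPM at 36 h. The part of these shifts in the results was not tested.

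The question for each member was whether its RNA differed between knockdown and control at the start of the assay and after 36 h of migration. At 0 h, 35 of the 49 members were called lower in the knockdown and none higher, where 14.6% of all tested genes were called lower and 3.1% higher. The median log2 fold change over the members was -1.34, against -0.41 over all tested genes. Log2 fold changes of single genes are given ± SE. In 45 of 49 members every knockdown library was below every control library, which held for 30.7% of tested genes. 48 of the 49 log2 fold changes were negative, the exception was Rpa3, and 44 had an unadjusted p under 0.05, as did 37.3% of tested genes. Without knockdown 0 h library 2, 39 members were called lower (16.8% of tested genes), 34 of them among the 35, and the median was -0.95 against -0.17 over all genes. With median-of-ratios scaling, which moves the median of all genes from -0.41 to -0.02, 28 members stayed called lower (10.9% of tested genes) and the members' median was -0.94. That scaling also turned the split of all calls from 2103 lower and 447 higher to 1566 lower and 1115 higher. When only the 6 libraries of 0 h were fitted, limma called no member and 0.0624% of tested genes lower, and 34 members had an unadjusted p under 0.05, as did 22.5% of tested genes. Leaving out control 0 h library 1, 2 or 3 gave 15, 19 and 15 members called lower, beside 4.48%, 5.84% and 5.47% of tested genes. Leaving out knockdown 0 h library 3 gave 43 members called lower, beside 35.3% of tested genes.

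Mcm5, Mcm7, Mcm10, Orc1, Cdc6, Cdt1, Cdc7, Dbf4, Rfc4, Rfc5, Rpa1, Exo1, Tk1 and Uhrf1 were the 14 members whose 0 h call held whichever single library was left out. The calls lost most often among 21 alternatives were those of Gmnn (14), Rrm2 (13), Rpa2 (12), Pole (11), Gins3 (10) and Pold2 (10). The first set holds 6 of the 13 genes grouped under licensing, Mcm10 among them, and both subunits of the firing kinase.

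At 36 h, 3 members were called lower, Cdt1, Lig1 and Exo1, and none higher, where 1.64% of tested genes were called lower and 0.894% higher. The members' median log2 fold change was -0.58, against -0.09 over all tested genes. 17 members had an unadjusted p under 0.05, beside 16.3% of tested genes. 48 of the 49 were negative, the exception being Gins2, and in 39 of 49 the libraries of the groups did not overlap, which held for 22% of tested genes. Without knockdown 0 h library 2, whose spread enters the shared estimate but not the 36 h means, 30 members were called lower (12% of tested genes), among them all 3. With only the 36 h libraries in the fit 25 were called (9.48% of tested genes), and with median-of-ratios scaling 7 (3.36% of tested genes). None was called when any 1 knockdown 36 h library, control 36 h library 1 or 4, or control 0 h library 1 or 2 was left out, and 1 without control 0 h library 3. In the fits that left out 1 library and called no member, 9 to 84 of all tested genes were called lower. Over the 21 alternatives the 36 h log2 fold change ran from -0.99 to -0.82 for Cdt1, from -1.11 to -0.79 for Lig1 and from -1.51 to -1.21 for Exo1.

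**Figure D1:**
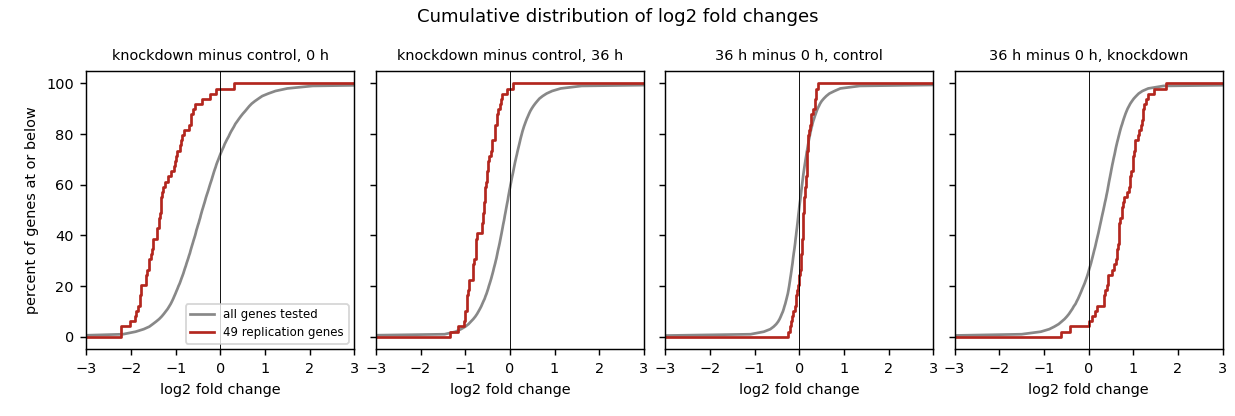
Cumulative percent of genes (vertical axis) at or below a log2 fold change (horizontal axis) for the 49 replication genes (red steps) and all tested genes (grey line) in 4 comparisons. The red curve lies to the left of the grey curve in both comparisons of knockdown with control, with medians of -1.34 against -0.41 at 0 h and -0.58 against -0.09 at 36 h, and to the right of it over time in the knockdown.

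Library by library, the summed TPM of the 49 members was 2997, 2869 and 3227 in control at 0 h and 1760, 917 and 1732 in knockdown at 0 h. It was 3570, 3041 and 3238 in control at 36 h and 2255, 2254 and 2051 in knockdown at 36 h. Knockdown libraries were below control libraries at both times, and the knockdown at 36 h lay between control and knockdown at 0 h. Relative to the control 0 h mean, the median member stood at log2 differences of -1.06, -1.99 and -0.85 in the knockdown 0 h libraries, -0.43, -0.52 and -0.58 in the knockdown 36 h libraries and 0.22, -0.05 and 0.14 in the control 36 h libraries.

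**Figure D2:**
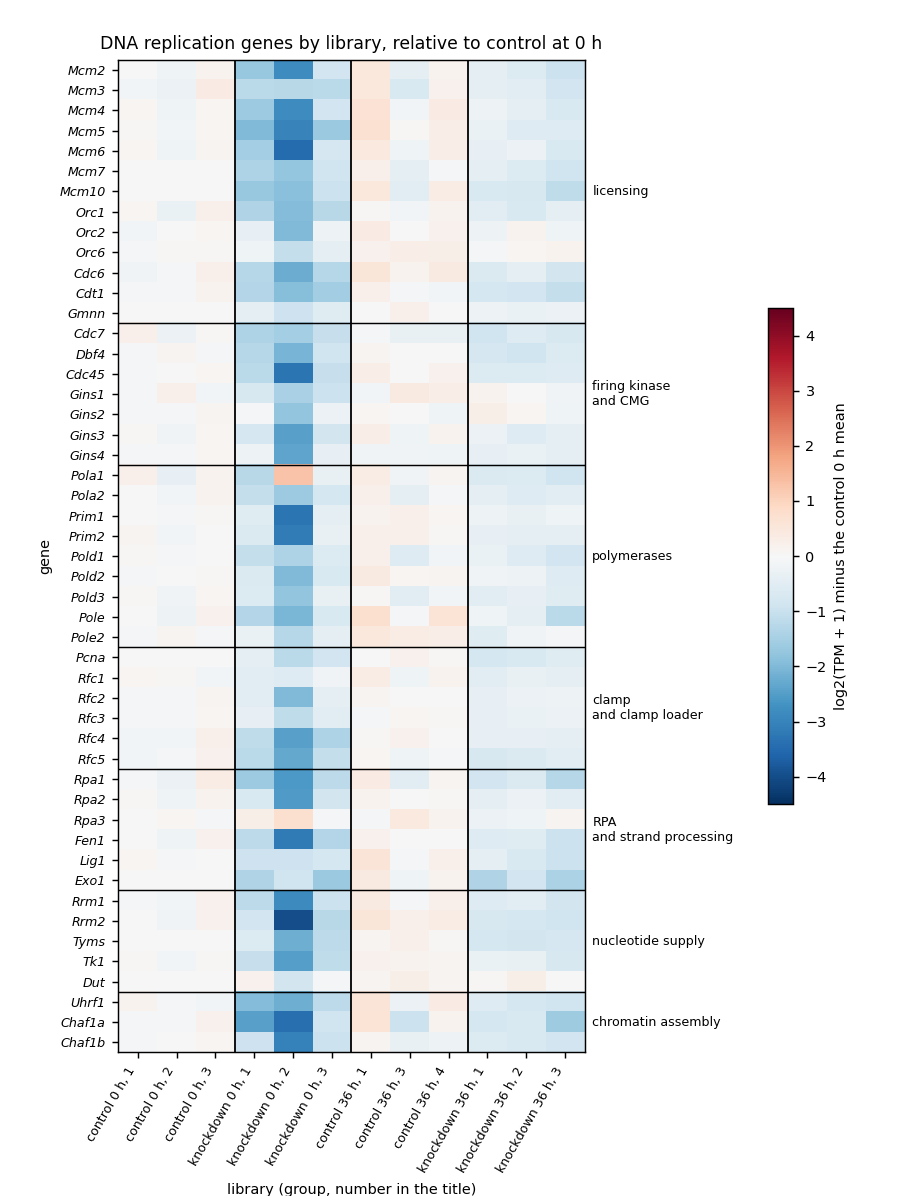
Heat map of log2(TPM + 1) minus the control 0 h mean for the 49 replication genes (vertical axis, by role) in the 12 libraries (horizontal axis, by group). Blue is lower and red higher than control at 0 h. The knockdown 0 h columns are blue in nearly every gene, with library 2 the darkest (median -1.99) and Pola1 and Rpa3 red in it.

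Of the 13 licensing genes, 11 were called lower at 0 h, with a median log2 fold change of -1.52 and a range from -2.22 (Mcm5) to -0.57 (Orc6). All 13 had groups that did not overlap, and 11 were called without knockdown 0 h library 2, where the median was -1.24. At 36 h the median was -0.61 and Cdt1 alone was called, while 5 were called without that library. Beside each role group, here and below, 14.6% of tested genes were called lower at 0 h and 1.64% at 36 h. Without that library these shares were 16.8% and 12%. Groups did not overlap, with knockdown lower, in 30.7% of tested genes at 0 h and 22% at 36 h. Mcm5, a subunit of the Mcm2 to Mcm7 ring, stood at 101, 90.4 and 105 TPM in control and 23.96, 11.5 and 30.5 TPM in knockdown at 0 h, and 158, 103 and 122 TPM in control and 80.3, 66.02 and 65.6 TPM in knockdown at 36 h. Every knockdown library was below every control library of its time, and the knockdown at 36 h was above the knockdown at 0 h in all 3 libraries. The Mcm5 difference at 0 h was -2.22 ± 0.31 on the log2 scale (adjusted p = 0.00208) with all libraries and -1.83 ± 0.18 (adjusted p = 0.000171) without library 2. Mcm5 differed by -0.83 ± 0.31 at 36 h (adjusted p = 0.199, or 0.00661 without library 2). Its 0 h call was lost in 1 of 21 alternatives, the fit of only the groups compared.

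Mcm2, another subunit of the ring, stood at 62.1, 54.4 and 69.5 TPM in control and 18.4, 7.83 and 33.6 TPM in knockdown at 0 h, and 86.9, 46.7 and 68.3 TPM in control and 46.1, 39.4 and 30.7 TPM in knockdown at 36 h. At each time the knockdown lay below control, and the control 36 h libraries spread more widely than those at 0 h. For Mcm2 the log2 fold change at 0 h came to -1.79 ± 0.42 (adjusted p = 0.0172), and leaving out library 2 gave -1.27 ± 0.29 (adjusted p = 0.0123). By 36 h Mcm2 stood at a log2 fold change of -0.76 ± 0.42 (adjusted p = 0.429, and 0.0722 without library 2). Mcm7 stood at 105, 107 and 104 TPM in control and 39.6, 31.1 and 55.3 TPM in knockdown at 0 h, and 125, 76.7 and 101 TPM in control and 76.9, 69.02 and 55.9 TPM in knockdown at 36 h. Its groups were apart at 0 h and touched at 36 h, where control library 3 was just below knockdown library 1. Mcm7 had a 0 h log2 fold change of -1.34 ± 0.25 (adjusted p = 0.00728), which was -1.15 ± 0.21 without library 2 (adjusted p = 0.00385). At 36 h, Mcm7 had a log2 fold change of -0.56 ± 0.25 (adjusted p = 0.294), with an adjusted p of 0.0621 without library 2. The remaining ring subunits Mcm3, Mcm4 and Mcm6 had 0 h log2 fold changes of -1.23, -1.78 and -1.91, which were -1.22, -1.24 and -1.13 without library 2, and all were called in both fits. At 36 h they were at -0.59, -0.76 and -0.61 and were called neither with all libraries nor without library 2. The highest subunit of the ring was 1.75 to 7.70 times the lowest in a library, with a median of 2.12, and Mcm7 was the highest in 6 of 12 libraries. Mcm10, which binds the helicase as it becomes active, stood at 15.9, 15.9 and 15.4 TPM in control and 4.14, 3.60 and 7.56 TPM in knockdown at 0 h, and 22.5, 11.1 and 19.9 TPM in control and 9.45, 9.27 and 6.60 TPM in knockdown at 36 h. Its knockdown values were below control at both times. The Mcm10 difference at 0 h was -1.51 ± 0.30 on the log2 scale (adjusted p = 0.00941) with all libraries and -1.34 ± 0.30 (adjusted p = 0.0111) without library 2. Mcm10 differed by -0.96 ± 0.30 at 36 h (adjusted p = 0.129, or 0.0341 without library 2).

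Orc1, the largest subunit of the origin recognition complex, had the lowest mean level of the 49 in every group, and stood at 6.86, 5 and 7.69 TPM in control and 1.92, 0.910 and 2.12 TPM in knockdown at 0 h, and 6.72, 5.90 and 7.37 TPM in control and 4.37, 3.63 and 4.48 TPM in knockdown at 36 h. The groups did not overlap at either time. For Orc1 the log2 fold change at 0 h came to -1.52 ± 0.24 (adjusted p = 0.00336), and leaving out library 2 gave -1.30 ± 0.20 (adjusted p = 0.00160). By 36 h Orc1 stood at a log2 fold change of -0.57 ± 0.24 (adjusted p = 0.261, and 0.05003 without library 2). Orc6 is a small subunit of the same complex, and its values were 75.7, 81.6 and 81.8 TPM in control and 69.2, 36.98 and 58.9 TPM in knockdown at 0 h, and 90.7, 98.6 and 96.6 TPM in control and 74.6, 83.8 and 88.5 TPM in knockdown at 36 h. They were apart at both times by a small margin. Orc6 had a 0 h log2 fold change of -0.57 ± 0.22 (adjusted p = 0.0923), which was -0.31 ± 0.11 without library 2 (adjusted p = 0.0593). Orc2 had 0 h and 36 h log2 fold changes of -0.86 and -0.28, called at neither time. Without library 2 its 0 h value was -0.30, and the adjusted p was 0.205 at 0 h and 0.199 at 36 h. Cdc6, the ATPase that joins the origin complex to load Mcm, stood at 10.2, 10.8 and 13.5 TPM in control and 4.11, 1.67 and 4.12 TPM in knockdown at 0 h, and 17.1, 12.99 and 15.4 TPM in control and 6.95, 8.14 and 6.06 TPM in knockdown at 36 h. No knockdown library reached a control library of its time. The Cdc6 difference at 0 h was -1.59 ± 0.27 on the log2 scale (adjusted p = 0.00472) with all libraries and -1.28 ± 0.18 (adjusted p = 0.00117) without library 2. Cdc6 differed by -1.01 ± 0.27 at 36 h (adjusted p = 0.0788, or 0.00295 without library 2).

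Cdt1, which brings Mcm to the origin, stood at 36.7, 35.4 and 42.5 TPM in control and 14.9, 9.32 and 12.1 TPM in knockdown at 0 h, and 44.6, 36.1 and 35.2 TPM in control and 21.7, 20.4 and 17.5 TPM in knockdown at 36 h. Both times showed complete separation, and the knockdown at 36 h was above that at 0 h. For Cdt1 the log2 fold change at 0 h came to -1.60 ± 0.21 (adjusted p = 0.00177), and leaving out library 2 gave -1.44 ± 0.16 (adjusted p = 0.000275). By 36 h Cdt1 stood at a log2 fold change of -0.92 ± 0.21 (adjusted p = 0.0468, and 0.00197 without library 2). The 36 h call of Cdt1 was lost in 13 of 21 alternatives. Gmnn encodes geminin, the protein that binds and blocks Cdt1, and it stood at 68.8, 68.9 and 68.5 TPM in control and 52.3, 35.98 and 46.4 TPM in knockdown at 0 h, and 67.4, 81.6 and 67.7 TPM in control and 59.04, 55.6 and 57.2 TPM in knockdown at 36 h. Its knockdown values were below control in all libraries of both times, by less than those of Cdt1. Gmnn had a 0 h log2 fold change of -0.62 ± 0.19 (adjusted p = 0.0414), which was -0.47 ± 0.11 without library 2 (adjusted p = 0.0114). At 36 h, Gmnn had a log2 fold change of -0.32 ± 0.19 (adjusted p = 0.447), with an adjusted p of 0.0411 without library 2. With median-of-ratios scaling the 0 h value for Gmnn was -0.16 and was not called (adjusted p = 0.536). The ratio of Cdt1 to Gmnn, which is one of 6 pairs picked after their values were seen, was 0.533, 0.513 and 0.621 in control and 0.284, 0.259 and 0.261 in knockdown at 0 h. It was 0.662, 0.442 and 0.520 in control and 0.368, 0.366 and 0.305 in knockdown at 36 h. Control and knockdown did not overlap at either time, and library 2 did not stand apart in this ratio. The mean log2 ratio was lower in knockdown by -1.05 at 0 h and -0.63 at 36 h, with an exact two-sided permutation p of 0.1 each, the smallest that 3 against 3 allows, and 0.171 after adjustment over 12 tests. The ratios of Mcm5 to Mcm7 (log2 differences of -0.92 and -0.27 at 0 h and 36 h) and of Orc1 to Orc2 (-1.10 and -0.38) also had no overlap at either time, with the same p. For Orc1 to Orc2 at 36 h the groups nearly touched, with a lowest control ratio of 0.2897 and a highest knockdown ratio of 0.2894. Those of Rrm2 to Rrm1, Chaf1a to Chaf1b and Pole to Pole2 overlapped at 0 h, with exact p of 0.6, 0.3 and 0.2. At 36 h Rrm2 to Rrm1 did not overlap and was lower in knockdown (-0.35, exact p = 0.1). Chaf1a to Chaf1b and Pole to Pole2 overlapped at 36 h too, with exact p of 0.4 and 0.7.

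**Figure D3:**
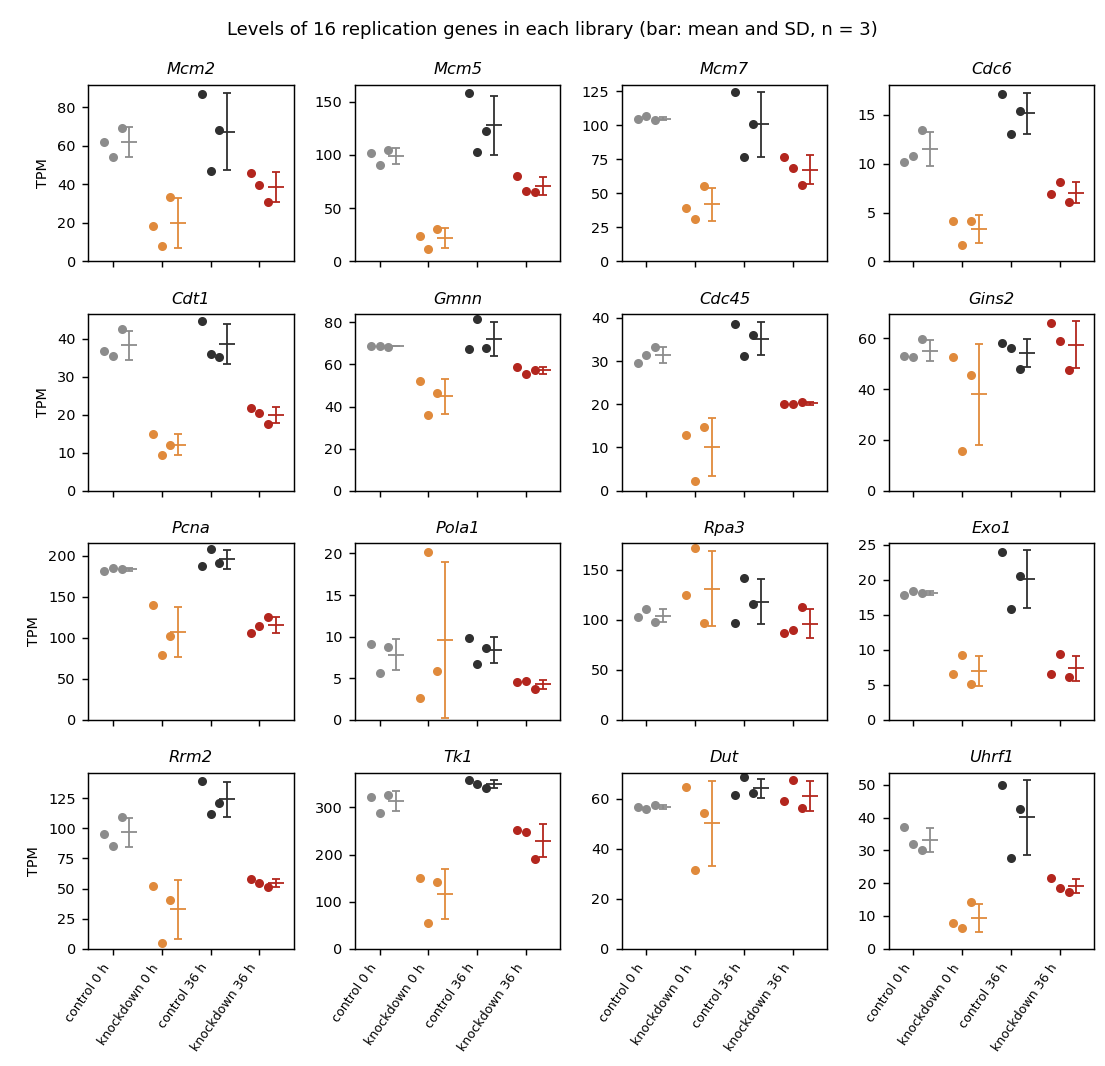
TPM (vertical axes, from 0) of 16 replication genes in each library, with 3 points per group and the mean with SD (n = 3) beside them, for control and knockdown at 0 h and 36 h. Mcm5, Cdt1, Exo1 and Uhrf1 are lower in every knockdown library than in every control library of the same time, while Gins2, Rpa3 and Dut overlap, and the Pola1 value of 20.2 TPM is knockdown 0 h library 2 alone.

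Of the 7 genes of the firing kinase and the CMG helicase, 5 were called lower at 0 h, with a median of -1.32 and a range from -1.84 (Cdc45) to -0.70 (Gins2). Without knockdown 0 h library 2, 6 were called and the median was -0.85. None was called at 36 h, where the median was -0.49, and 3 were called there without that library (12% of tested genes). Cdc7, the kinase that phosphorylates Mcm, stood at 14.96, 10.3 and 13.4 TPM in control and 4.24, 3.78 and 5.71 TPM in knockdown at 0 h, and 11.96, 9.85 and 9.90 TPM in control and 6.34, 8.12 and 7.26 TPM in knockdown at 36 h. The groups did not overlap. The Cdc7 difference at 0 h was -1.32 ± 0.21 on the log2 scale (adjusted p = 0.00394) with all libraries and -1.21 ± 0.20 (adjusted p = 0.00227) without library 2. Dbf4, its activating subunit, stood at 23.5, 26.99 and 23.4 TPM in control and 9.51, 4.95 and 12.8 TPM in knockdown at 0 h, and 27.02, 24.5 and 25.2 TPM in control and 14.1, 12.9 and 15.5 TPM in knockdown at 36 h. Knockdown was below control throughout, with library 2 the lowest. For Dbf4 the log2 fold change at 0 h came to -1.43 ± 0.27 (adjusted p = 0.00776), and leaving out library 2 gave -1.09 ± 0.15 (adjusted p = 0.000977). By 36 h Dbf4 stood at a log2 fold change of -0.81 ± 0.27 (adjusted p = 0.152, and 0.00317 without library 2). Cdc45, the helicase cofactor whose binding marks an origin that fires, stood at 29.5, 31.3 and 33.3 TPM in control and 12.9, 2.33 and 14.8 TPM in knockdown at 0 h, and 38.5, 31.1 and 35.9 TPM in control and 19.98, 19.99 and 20.6 TPM in knockdown at 36 h. Library 2 was far below its group mates, and the other knockdown libraries of 0 h were still under all controls. Cdc45 had a 0 h log2 fold change of -1.84 ± 0.46 (adjusted p = 0.0222), which was -1.12 ± 0.13 without library 2 (adjusted p = 0.000309). At 36 h, Cdc45 had a log2 fold change of -0.77 ± 0.46 (adjusted p = 0.476), with an adjusted p of 0.00163 without library 2.

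The GINS complex has 4 subunits and completes the active helicase. Gins1 stood at 11.9, 15.3 and 11.7 TPM in control and 7.39, 4.08 and 6.03 TPM in knockdown at 0 h, and 11.7, 17.3 and 15.9 TPM in control and 14.3, 12.8 and 11.5 TPM in knockdown at 36 h. It was apart at 0 h and overlapped at 36 h. The Gins1 difference at 0 h was -1.05 ± 0.24 on the log2 scale (adjusted p = 0.0158) with all libraries and -0.85 ± 0.20 (adjusted p = 0.0128) without library 2. Gins1 differed by -0.19 ± 0.24 at 36 h (adjusted p = 0.807, or 0.512 without library 2). Gins2 was the one member with a positive value at 36 h and stood at 52.8, 52.6 and 59.9 TPM in control and 52.7, 15.4 and 45.6 TPM in knockdown at 0 h, and 58.2, 56.1 and 47.8 TPM in control and 66.1, 58.9 and 47.6 TPM in knockdown at 36 h. Apart from library 2, its knockdown values lay close to control at 0 h, and the groups overlapped at both times. For Gins2 the log2 fold change at 0 h came to -0.70 ± 0.37 (adjusted p = 0.184), and leaving out library 2 gave -0.16 ± 0.15 (adjusted p = 0.468). By 36 h Gins2 stood at a log2 fold change of 0.08 ± 0.37 (adjusted p = 0.961, and 0.722 without library 2). Gins3 and Gins4 had 0 h log2 fold changes of -1.34 ± 0.38 and -0.99 ± 0.44, of which Gins3 was called. Without library 2 these were -0.79 ± 0.18 and -0.30 ± 0.09, and both were called. At 36 h they were -0.51 and -0.17, with adjusted p of 0.603 and 0.919, or 0.0481 and 0.151 without library 2. Gins4 had the highest TPM of the 4 subunits in 12 of 12 libraries, 6.12 to 14.6 times the lowest.

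Polymerase alpha with primase makes the primer, polymerase epsilon extends the leading strand and polymerase delta the lagging strand. Of these 9 genes, 4 were called lower at 0 h (Pola2, Pold1, Pold2 and Pole), with a median of -1.11, and 5 without knockdown 0 h library 2, with a median of -0.67. At 36 h none was called, at a median of -0.53, and 5 were called without that library (12% of tested genes). Pola1, the catalytic subunit of polymerase alpha, stood at 9.16, 5.65 and 8.69 TPM in control and 2.66, 20.2 and 5.90 TPM in knockdown at 0 h, and 9.86, 6.69 and 8.57 TPM in control and 4.51, 4.67 and 3.65 TPM in knockdown at 36 h. Library 2 was the highest of all 12 for this gene and the other knockdown values of 0 h were within or below the control range. Pola1 had a 0 h log2 fold change of -0.10 ± 0.49 (adjusted p = 0.892), which was -0.79 ± 0.29 without library 2 (adjusted p = 0.0801). At 36 h, Pola1 had a log2 fold change of -0.82 ± 0.49 (adjusted p = 0.479), with an adjusted p of 0.0545 without library 2. With median-of-ratios scaling its 0 h value had the opposite sign, 0.33. Pola2, the second subunit of the same complex, had 0 h values of -1.16 ± 0.24 with and -0.93 ± 0.18 without library 2, called in both.

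Prim1, the catalytic primase subunit, stood at 44.9, 43.5 and 46.8 TPM in control and 30.9, 3.71 and 32.8 TPM in knockdown at 0 h, and 50.3, 52.4 and 47.9 TPM in control and 38.7, 35.7 and 39.4 TPM in knockdown at 36 h. All knockdown libraries were below all controls, but library 2 at 3.71 TPM was far from the other knockdown libraries. The Prim1 difference at 0 h was -1.42 ± 0.58 on the log2 scale (adjusted p = 0.102) with all libraries and -0.49 ± 0.10 (adjusted p = 0.00628) without library 2. Prim1 differed by -0.40 ± 0.58 at 36 h (adjusted p = 0.839, or 0.0119 without library 2). Prim2, its partner, showed the same shape, with 10.97, 1.10 and 13.8 TPM in the knockdown at 0 h against 19.6, 16.2 and 17.6 TPM in control. Its 0 h log2 fold change was -1.39 ± 0.56 (adjusted p = 0.0989) and -0.50 ± 0.14 without library 2 (adjusted p = 0.0299). Pole, the catalytic subunit of polymerase epsilon, stood at 11.3, 9.40 and 12.8 TPM in control and 3.79, 1.91 and 6.51 TPM in knockdown at 0 h, and 18.7, 10.4 and 17.7 TPM in control and 9.49, 8.21 and 4.21 TPM in knockdown at 36 h. Knockdown was below control at both times, with 1 low library in the knockdown at 36 h. For Pole the log2 fold change at 0 h came to -1.36 ± 0.38 (adjusted p = 0.0320), and leaving out library 2 gave -1.01 ± 0.35 (adjusted p = 0.0592). By 36 h Pole stood at a log2 fold change of -1.02 ± 0.38 (adjusted p = 0.195, and 0.0443 without library 2). Pole was the one gene among the 35 called at 0 h that was not called without library 2. Its subunit Pole2 had log2 fold changes of -0.66 at 0 h and -0.63 at 36 h, called at neither time. Without library 2 its 0 h value was -0.35 (adjusted p = 0.149), and its 36 h value was called (adjusted p = 0.0143). Pold1, the catalytic subunit of polymerase delta, stood at 39.9, 35.6 and 38.7 TPM in control and 17.5, 13.98 and 24.7 TPM in knockdown at 0 h, and 44.7, 24.8 and 34.7 TPM in control and 30.9, 24.9 and 20.5 TPM in knockdown at 36 h. The groups were apart at 0 h and overlapped at 36 h. Pold1 had a 0 h log2 fold change of -1.02 ± 0.27 (adjusted p = 0.0273), which was -0.84 ± 0.25 without library 2 (adjusted p = 0.0339). Pold3, an accessory subunit, stood at 24.7, 21.3 and 25.6 TPM in control and 15.1, 6.19 and 18.7 TPM in knockdown at 0 h, and 24.7, 16.3 and 21.7 TPM in control and 16.6, 18.2 and 15.9 TPM in knockdown at 36 h. It too was apart at 0 h and overlapped at 36 h. The Pold3 difference at 0 h was -0.92 ± 0.33 on the log2 scale (adjusted p = 0.0727) with all libraries and -0.48 ± 0.18 (adjusted p = 0.0836) without library 2. Pold2 had 0 h values of -1.11 ± 0.32 with and -0.67 ± 0.13 without library 2, called in both.

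Pcna is the ring that tethers polymerases to DNA, and the Rfc1 to Rfc5 complex opens and loads it. Of these 6 genes, 3 were called lower at 0 h (Pcna, Rfc4 and Rfc5) with a median of -0.89, and 5 without knockdown 0 h library 2 with a median of -0.54. At 36 h none was called, at a median of -0.50, while all 6 were called without that library (12% of tested genes). All 6 had groups that did not overlap at 36 h, which held for 22% of tested genes. Pcna stood at 181, 185 and 184 TPM in control and 139.5, 79.2 and 102 TPM in knockdown at 0 h, and 187, 208 and 191 TPM in control and 106, 115 and 125 TPM in knockdown at 36 h. Every knockdown library was below every control library, with little spread in control. For Pcna the log2 fold change at 0 h came to -0.81 ± 0.21 (adjusted p = 0.0233), and leaving out library 2 gave -0.62 ± 0.13 (adjusted p = 0.00754). By 36 h Pcna stood at a log2 fold change of -0.76 ± 0.21 (adjusted p = 0.0818, and 0.00190 without library 2). With median-of-ratios scaling Pcna was at -0.35 at 0 h and was not called (adjusted p = 0.214).

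Rfc4, a small loader subunit, stood at 77.5, 77.99 and 98.6 TPM in control and 37.7, 14.6 and 31.3 TPM in knockdown at 0 h, and 87.6, 96.3 and 85.4 TPM in control and 65.5, 65.2 and 61.6 TPM in knockdown at 36 h. The groups did not overlap, and the 36 h knockdown values were above all those of the 0 h knockdown. Rfc4 had a 0 h log2 fold change of -1.66 ± 0.29 (adjusted p = 0.00541), which was -1.27 ± 0.13 without library 2 (adjusted p = 0.0002001). At 36 h, Rfc4 had a log2 fold change of -0.48 ± 0.29 (adjusted p = 0.485), with an adjusted p of 0.0179 without library 2. Rfc1, the large loader subunit, stood at 48.97, 47.8 and 42.96 TPM in control and 33.1, 30.5 and 41.8 TPM in knockdown at 0 h, and 59.5, 41.02 and 51.8 TPM in control and 33.5, 36.4 and 34.5 TPM in knockdown at 36 h. The groups came close at 0 h, where knockdown library 3 was just under the lowest control. The Rfc1 difference at 0 h was -0.41 ± 0.20 on the log2 scale (adjusted p = 0.156) with all libraries and -0.31 ± 0.16 (adjusted p = 0.182) without library 2. Rfc1 differed by -0.52 ± 0.20 at 36 h (adjusted p = 0.217, or 0.0312 without library 2). With median-of-ratios scaling the 0 h sign of Rfc1 turned, at 0.05. Rfc2 stood at 144, 139 and 162 TPM in control and 104, 36.7 and 111 TPM in knockdown at 0 h, and 159.8, 149 and 145 TPM in control and 114, 122 and 125 TPM in knockdown at 36 h. It was the highest loader subunit in 11 of 12 libraries. For Rfc2 the log2 fold change at 0 h came to -0.97 ± 0.34 (adjusted p = 0.0682), and leaving out library 2 gave -0.46 ± 0.10 (adjusted p = 0.00755). Rfc3 stood at 118, 119 and 131 TPM in control and 95.6, 55.5 and 87.9 TPM in knockdown at 0 h, and 119.6, 131 and 127 TPM in control and 94.9, 99.6 and 103 TPM in knockdown at 36 h. Its knockdown values were below control by a modest margin at both times. Rfc3 had a 0 h log2 fold change of -0.65 ± 0.21 (adjusted p = 0.0507), which was -0.42 ± 0.09 without library 2 (adjusted p = 0.00851). Rfc5 stood at 52.7, 54.2 and 64.7 TPM in control and 24.2, 10.7 and 26.7 TPM in knockdown at 0 h, and 59.9, 49.2 and 55.03 TPM in control and 34.3, 36.3 and 39.6 TPM in knockdown at 36 h. Knockdown and control were well apart. The Rfc5 difference at 0 h was -1.53 ± 0.29 on the log2 scale (adjusted p = 0.00790) with all libraries and -1.13 ± 0.13 (adjusted p = 0.000350) without library 2. Rfc5 differed by -0.56 ± 0.29 at 36 h (adjusted p = 0.391, or 0.00883 without library 2).

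Rpa1, Rpa2 and Rpa3 form the complex that coats single-stranded DNA. Fen1 cuts primer flaps on the lagging strand, Lig1 joins the fragments, and Exo1 is a nuclease of mismatch repair and end resection. Of these 6 genes, 5 were called lower at 0 h (median -1.33), beside 14.6% of tested genes. The same number were called without knockdown 0 h library 2 (median -1.05), beside 16.8%. Rpa1 stood at 112, 101 and 153 TPM in control and 37.8, 19.2 and 52.3 TPM in knockdown at 0 h, and 156, 83.3 and 132 TPM in control and 65.3, 75.9 and 48.3 TPM in knockdown at 36 h. All its knockdown values lay below control, and control varied more than for most members. For Rpa1 the log2 fold change at 0 h came to -1.80 ± 0.36 (adjusted p = 0.00974), and leaving out library 2 gave -1.41 ± 0.29 (adjusted p = 0.00678). By 36 h Rpa1 stood at a log2 fold change of -0.93 ± 0.36 (adjusted p = 0.222, and 0.0309 without library 2). Rpa2 stood at 48.4, 40.2 and 51.5 TPM in control and 28.2, 7.02 and 25.5 TPM in knockdown at 0 h, and 52.6, 47.1 and 48.2 TPM in control and 35.1, 38.8 and 32.7 TPM in knockdown at 36 h. It was the lowest of the 3 subunits in 12 of 12 libraries. Rpa2 had a 0 h log2 fold change of -1.37 ± 0.40 (adjusted p = 0.0371), which was -0.77 ± 0.13 without library 2 (adjusted p = 0.00270). At 36 h, Rpa2 had a log2 fold change of -0.46 ± 0.40 (adjusted p = 0.665), with an adjusted p of 0.0222 without library 2. Rpa3, the smallest subunit, stood at 103, 111 and 98 TPM in control and 125, 172 and 97.1 TPM in knockdown at 0 h, and 96.7, 142 and 116 TPM in control and 86.5, 89.6 and 112 TPM in knockdown at 36 h. Unlike its partners it overlapped between the groups at both times, and library 2 was its highest value. The Rpa3 difference at 0 h was 0.30 ± 0.24 on the log2 scale (adjusted p = 0.358) with all libraries and 0.08 ± 0.18 (adjusted p = 0.764) without library 2. Rpa3 differed by -0.29 ± 0.24 at 36 h (adjusted p = 0.645, or 0.240 without library 2). Rpa3 has the shortest gene model of the members, 670 bases, and library 2 is the one with a high share of short genes. The part of length in its value was not tested.

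Fen1 stood at 76.5, 67.3 and 89.4 TPM in control and 33.96, 7.57 and 30.5 TPM in knockdown at 0 h, and 88.9, 75.5 and 77.03 TPM in control and 51.3, 52.7 and 39.5 TPM in knockdown at 36 h. Library 2 was the lowest and the groups did not overlap. For Fen1 the log2 fold change at 0 h came to -1.89 ± 0.43 (adjusted p = 0.0159), and leaving out library 2 gave -1.24 ± 0.16 (adjusted p = 0.000644). By 36 h Fen1 stood at a log2 fold change of -0.75 ± 0.43 (adjusted p = 0.452, and 0.00592 without library 2). Lig1 stood at 31.1, 27.6 and 30.1 TPM in control and 15, 15.1 and 16.5 TPM in knockdown at 0 h, and 44.9, 28.5 and 35.05 TPM in control and 21.3, 18.1 and 14.8 TPM in knockdown at 36 h. Library 2 was close to its group mates in this gene, and knockdown was below control at both times. Lig1 had a 0 h log2 fold change of -0.89 ± 0.21 (adjusted p = 0.0187), which was -0.87 ± 0.20 without library 2 (adjusted p = 0.0111). At 36 h, Lig1 had a log2 fold change of -0.95 ± 0.21 (adjusted p = 0.0437), with an adjusted p of 0.00513 without library 2. Exo1 had the largest difference of the 49 members at 36 h and stood at 17.8, 18.3 and 18.1 TPM in control and 6.48, 9.29 and 5.05 TPM in knockdown at 0 h, and 23.99, 15.8 and 20.5 TPM in control and 6.48, 9.40 and 6.12 TPM in knockdown at 36 h. Knockdown libraries were below control by a wide margin at both times, with library 2 the highest of the knockdown at 0 h. The Exo1 difference at 0 h was -1.30 ± 0.25 on the log2 scale (adjusted p = 0.00831) with all libraries and -1.50 ± 0.22 (adjusted p = 0.00116) without library 2. Exo1 differed by -1.34 ± 0.25 at 36 h (adjusted p = 0.0242, or 0.00150 without library 2). The 36 h calls of Lig1 and Exo1 were lost in 13 and 10 of 21 alternatives. Their log2 fold changes over time in the knockdown were 0.19 and 0.08, so the values at 36 h were near those at 0 h.

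Rrm1 and Rrm2 form ribonucleotide reductase, which makes deoxynucleotides, Tyms makes thymidylate, Tk1 salvages thymidine, and Dut removes dUTP. At 0 h 4 of the 5 were called lower, with a median of -1.55 (4 and -1.05 without knockdown 0 h library 2). At 36 h none was called, at a median of -0.82, and 4 were called without that library (12% of tested genes). Rrm2, the subunit of the reductase that is limiting in S phase, stood at 94.9, 85.4 and 109 TPM in control and 52.5, 5.17 and 40.3 TPM in knockdown at 0 h, and 139.6, 112 and 121 TPM in control and 57.5, 54.6 and 51.2 TPM in knockdown at 36 h. Library 2 was far below its group mates, which were themselves below all controls. For Rrm2 the log2 fold change at 0 h came to -2.02 ± 0.61 (adjusted p = 0.0426), and leaving out library 2 gave -1.05 ± 0.15 (adjusted p = 0.00109). By 36 h Rrm2 stood at a log2 fold change of -1.17 ± 0.61 (adjusted p = 0.391, and 0.000476 without library 2). Rrm1 had 0 h values of -1.66 ± 0.41 with and -1.06 ± 0.17 without library 2, called in both. At 36 h it was at -0.82 (adjusted p = 0.360, or 0.00513 without library 2).

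Tyms stood at 107, 104 and 105 TPM in control and 68.5, 22.3 and 46.02 TPM in knockdown at 0 h, and 114, 124 and 108 TPM in control and 60.9, 58.7 and 61.2 TPM in knockdown at 36 h. The groups were apart, and the 3 knockdown libraries of 36 h were within 3 TPM of each other. Tyms had a 0 h log2 fold change of -1.32 ± 0.31 (adjusted p = 0.0183), which was -0.89 ± 0.14 without library 2 (adjusted p = 0.00204). At 36 h, Tyms had a log2 fold change of -0.93 ± 0.31 (adjusted p = 0.158), with an adjusted p of 0.00121 without library 2. Tk1 had the highest level of the 49 in 3 of 4 groups and stood at 323, 288 and 327 TPM in control and 150.3, 55.3 and 142 TPM in knockdown at 0 h, and 359, 350.1 and 341 TPM in control and 251, 248 and 189.7 TPM in knockdown at 36 h. Knockdown libraries were lower than all controls at both times, less so at 36 h. The Tk1 difference at 0 h was -1.55 ± 0.32 on the log2 scale (adjusted p = 0.0108) with all libraries and -1.09 ± 0.12 (adjusted p = 0.000310) without library 2. Tk1 differed by -0.62 ± 0.32 at 36 h (adjusted p = 0.387, or 0.00426 without library 2). Dut stood closer to control than the others, at 56.5, 55.8 and 57.4 TPM in control and 64.9, 31.6 and 54.3 TPM in knockdown at 0 h, and 61.5, 68.7 and 62.3 TPM in control and 59.2, 67.7 and 56.5 TPM in knockdown at 36 h. Groups overlapped at both times, and library 2 alone was low. For Dut the log2 fold change at 0 h came to -0.23 ± 0.24 (adjusted p = 0.494), and leaving out library 2 gave 0.07 ± 0.11 (adjusted p = 0.697). With median-of-ratios scaling it was 0.23, of the opposite sign. By 36 h Dut stood at a log2 fold change of -0.07 ± 0.24 (adjusted p = 0.945, and 0.674 without library 2).

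Chaf1a and Chaf1b are subunits of the CAF-1 complex, which places histones on new DNA, and Uhrf1 reads hemimethylated sites to guide maintenance methylation. All 3 were called lower at 0 h, beside 14.6% of tested genes, with a median of -1.78. Without knockdown 0 h library 2 all 3 were called, beside 16.8% of tested genes, and the median was -1.56. Uhrf1 stood at 37.2, 31.8 and 30.2 TPM in control and 7.74, 6.34 and 14.2 TPM in knockdown at 0 h, and 50.03, 27.6 and 42.5 TPM in control and 21.4, 18.7 and 17.2 TPM in knockdown at 36 h. Control and knockdown did not overlap at either time. Uhrf1 had a 0 h log2 fold change of -1.78 ± 0.29 (adjusted p = 0.00426), which was -1.56 ± 0.27 without library 2 (adjusted p = 0.00309). At 36 h, Uhrf1 had a log2 fold change of -0.99 ± 0.29 (adjusted p = 0.108), with an adjusted p of 0.0186 without library 2. Chaf1a, the large CAF-1 subunit, had the largest difference at 0 h with all 12 libraries and stood at 11.9, 11.8 and 14.7 TPM in control and 1.54, 0.320 and 6.37 TPM in knockdown at 0 h, and 20.1, 5.96 and 14.3 TPM in control and 7.01, 7.46 and 3.48 TPM in knockdown at 36 h. Its libraries spread widely in both knockdown at 0 h and control at 36 h, where control library 3 was lower than knockdown libraries 1 and 2. The Chaf1a difference at 0 h was -2.24 ± 0.57 on the log2 scale (adjusted p = 0.0237) with all libraries and -1.67 ± 0.52 (adjusted p = 0.0436) without library 2. Chaf1a differed by -0.96 ± 0.57 at 36 h (adjusted p = 0.469, or 0.182 without library 2). Chaf1b stood at 48.7, 50.5 and 55.3 TPM in control and 26.5, 5.41 and 25.8 TPM in knockdown at 0 h, and 56.2, 40.4 and 44.03 TPM in control and 33.2, 31.3 and 27.9 TPM in knockdown at 36 h. It was lower in every knockdown library. For Chaf1b the log2 fold change at 0 h came to -1.65 ± 0.45 (adjusted p = 0.0309), and leaving out library 2 gave -0.95 ± 0.15 (adjusted p = 0.00155). By 36 h Chaf1b stood at a log2 fold change of -0.58 ± 0.45 (adjusted p = 0.618, and 0.0127 without library 2).

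**Figure D4:**
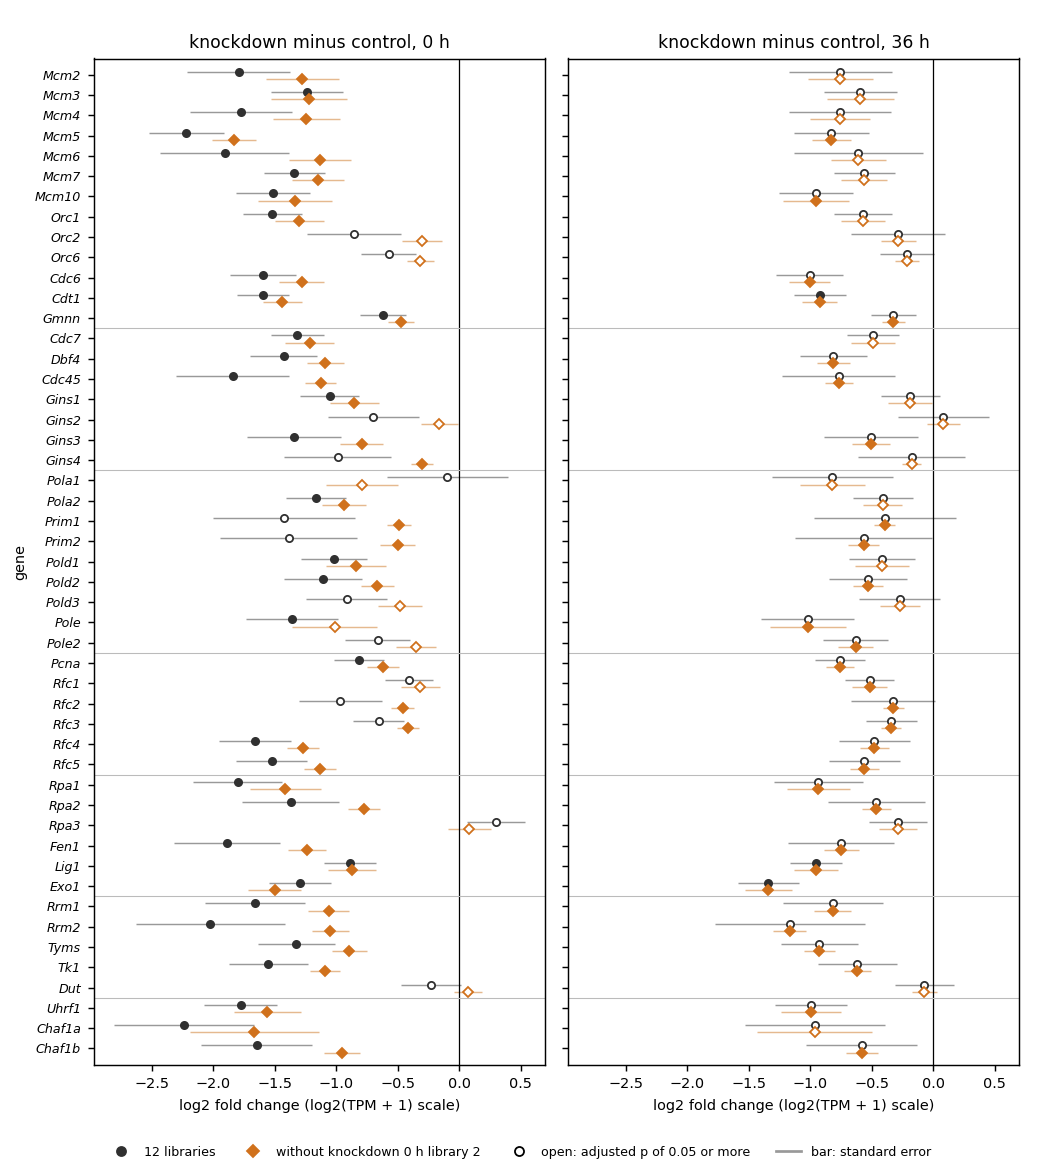
Log2 fold change of knockdown minus control (horizontal axis, bars are SE) for each of the 49 replication genes (vertical axis, by role) at 0 h and 36 h, from all 12 libraries (black circles) and without knockdown 0 h library 2 (orange diamonds). Filled symbols have an adjusted p under 0.05 in limma. At 0 h the diamonds lie to the right of the circles for most genes (medians -0.95 and -1.34), and at 36 h both symbols share a value while 30 diamonds and 3 circles are filled.

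Change over the 36 h of migration was asked within each group of cells. In control no member was called in either direction, where 0.111% of tested genes were called lower and 0.25% higher, and no member had an unadjusted p under 0.05, beside 5.57% of tested genes. The members' median log2 fold change, 36 h minus 0 h, was 0.10, and the extremes were Pole at 0.42 ± 0.38 and Cdc7 at -0.25 ± 0.21. In the knockdown 1 member, Mcm5, was called higher, where 0.998% of tested genes were called higher and 0.125% lower. 25 members had an unadjusted p under 0.05, beside 16.4% of tested genes. The members' median was 0.76 against 0.33 over all tested genes, 46 of 49 were positive, and in 27 of 49 every 36 h library was above every 0 h library, which held for 15% of tested genes. Mcm5 was at 1.74 ± 0.31 (adjusted p = 0.0215), a call lost in 6 of 21 alternatives. Without any 1 of the knockdown 36 h libraries no member was called, while 2 were without knockdown 0 h library 1 (0.97% of tested genes) and 17 without knockdown 0 h library 3 (9.88% of tested genes). With all libraries, the next by size were Mcm6 at 1.47 ± 0.52, Mcm4 at 1.32 ± 0.41 and Rfc4 at 1.27 ± 0.29, none of them called. The Mcm6 and Mcm4 values include knockdown 0 h library 2, at 4.04 and 6.64 TPM. The other knockdown 0 h libraries had 18.3 and 32.1 TPM of Mcm6, and 16.7 and 29.3 TPM of Mcm4. Neither gene was called without library 2.

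Without knockdown 0 h library 2 the members' median over time in the knockdown was 0.37, against 0.07 over all tested genes. 3 members were called higher, beside 1.95% of tested genes: Mcm5 at 1.35 ± 0.18, Rfc4 at 0.88 ± 0.13 and Tk1 at 0.63 ± 0.12. Pola1 had the lowest value over time in the knockdown, -0.63 ± 0.49, and 0.06 ± 0.29 without library 2, so its sign rests on that library. The difference between the change over time in knockdown and in control had a median of 0.78 over the members (0.34 over all tested genes). Without library 2 this median was 0.28 (0.09 over all tested genes). With all libraries no member was called in that difference, where 0% of tested genes were called in either direction. 8 members had an unadjusted p under 0.05, beside 5.31% of tested genes, and the smallest adjusted p was 0.595. The values ran from Pola1 at -0.72 ± 0.70 to Mcm5 at 1.39 ± 0.44. Without library 2 no member was called either, while 9 of 14227 tested genes were called higher and 1 lower. A smaller gap between knockdown and control at 36 h than at 0 h was therefore not shown by a test for any member.

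Gene length moved with some of these values. Across the 49 members, Spearman's rho between gene length and the log2 fold change was -0.18 at 0 h (-0.38 without knockdown 0 h library 2) and -0.47 at 36 h, as a description of genes that share libraries. At 36 h the 24 members shorter than 2796 bases had a median of -0.52 and the 25 others -0.76. Within control at 36 h, deviation from the group mates went with length at rho of 0.71 in library 1 and -0.71 in library 3 over the members, and in library 3 at -0.51 over all tested genes. Control 36 h library 3 was the lowest of its group in 32 of 49 members. The part of length in the 36 h differences was not tested.

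Other genes of the same processes were taken from lists written out with the members. Of all tested genes, 14.6% were called lower and 3.1% higher at 0 h, and 1.64% and 0.894% at 36 h. The 0 h median over all tested genes was -0.41. Without knockdown 0 h library 2, 16.8% were called lower at 0 h and 12% at 36 h, with a 0 h median of -0.17. In that fit 973 and 998 of 14227 genes were called higher at 0 h and 36 h. Of 40 further replication genes, 16 were called lower at 0 h and none higher, with a median of -0.87, and 2 were called lower at 36 h. Without knockdown 0 h library 2 these were 21 lower and 2 higher at 0 h, and 14 lower and 2 higher at 36 h. The 2 higher were Orc3, of the origin recognition complex, and Pold4, of polymerase delta, at both times. In that fit Orc3 was at 0.50 at 0 h and 0.51 at 36 h, and Pold4 at 0.36 and 0.58. With all libraries, those of the 40 with the lowest adjusted p at 0 h were Top2a, which untangles DNA (-1.63 ± 0.22), Mcmbp, an Mcm-binding protein (-1.76 ± 0.25), Clspn, the checkpoint mediator claspin (-1.67 ± 0.29), and Asf1b, a histone chaperone (-1.98 ± 0.41). Top2a and Mcmbp were also called at 36 h, at -1.08 ± 0.22 and -1.29 ± 0.25. Without library 2, Top2a, Mcmbp, Clspn and Asf1b were at -1.53, -1.63, -1.40 and -1.37 at 0 h, all called. Of 21 regulators of the E2F and Rb pathway and of S-phase entry, 8 were called lower at 0 h (median -1.07) and 1 at 36 h, cyclin A2 (Ccna2), at -1.02 ± 0.23. At 0 h Ccna2 was at -1.97 ± 0.23, and the E2F family members E2f2 and E2f8 at -1.17 ± 0.25 and -1.29 ± 0.30. Without library 2, 11 of the 21 were called lower and 1 higher at 0 h (median -0.54), and 11 were called lower at 36 h. In that fit Ccna2, E2f2 and E2f8 were at -1.72, -0.98 and -1.16 at 0 h and still called. The 1 higher at 0 h was E2f4, at 0.31, and E2f1 was at -0.12 and not called. Neither E2f4 nor E2f1 was called at 36 h, at 0.22 and -0.09. In 25 further genes of nucleotide synthesis, 3 were called lower and 1 higher at 0 h, near the shares over all tested genes. The median of these 25 was -0.57, against -0.41 over all tested genes. Impdh2, a rate-limiting enzyme of guanine nucleotide synthesis, was at -1.04 ± 0.19, the salvage kinase Dck at -1.29 ± 0.24, the dNTP hydrolase Samhd1 at -1.03 ± 0.29, and the nucleoside diphosphate kinase Nme2 at 0.75 ± 0.17. Of these 4, Impdh2 was also called at 36 h, at -0.81 ± 0.19. Without library 2, 6 of the 25 were called lower and 1 higher at 0 h. Their median was then -0.18, against -0.17 over all tested genes. In that fit Impdh2, Dck, Samhd1 and Nme2 were at -0.86, -1.06, -0.67 and 0.64 and still called. At 36 h without library 2, 5 of the 25 were called lower and 1 higher, which was the thymidine kinase gene Tk2 and not Nme2. Nme2 has a close paralog, Nme1, and reads could have been split between them, so its value is uncertain.

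Mitotic genes act after replication, and their levels follow cycling cells too. All 30 listed were called lower at 0 h, beside 14.6% of tested genes, with a median of -2.16 against -1.34 for the replication genes. At 36 h 6 were called lower, beside 1.64% of tested genes, with a median of -0.89 against -0.58. Without knockdown 0 h library 2, all 30 were called lower at 0 h (16.8% of tested genes), with a median of -1.84 against -0.95. In that fit 29 of the 30 were called lower at 36 h (12% of tested genes). The difference between the lists was not tested. Kif2c, a microtubule-depolymerising kinesin, was at -2.47 ± 0.25 at 0 h and -0.89 ± 0.25 at 36 h, and Mki67, the proliferation antigen, at -2.04 ± 0.27 and -1.86 ± 0.27. Without library 2 their 0 h values were -2.20 and -1.87, and both were called at both times. In the knockdown over time, 2 mitotic genes were called higher, Kif2c and Plk1, beside 0.998% of tested genes, and 14 without library 2, beside 1.95%.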

How the data were processed

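Total RNA of 12 HC11 libraries was sequenced as stranded mRNA, per the labels' protocols. Tools listed in the submitters' processing notes are HISAT2 2.2.1, cutadapt 1.9.1, DESeq2, HTSeq and FastQC, and the mouse build named there is not that of the promoter table. Which program made the values is not given in the sources used here. The table deposited by the authors holds TPM, expression scaled for gene length and library total, for 57180 genes. TPM keeps no read depth, so counts were not recovered and depth and counting error are unknown. Deposited group means were not used.

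The 14426 genes that reached 1 TPM in 3 or more of the 12 libraries were fitted as log2(TPM + 1) in limma 3.58.1 (R 4.3.3) with 1 mean per group and a trend in the variance. This scale understates changes of genes with low levels. P-values are two-sided and Benjamini-Hochberg adjusted over all genes tested in each of 5 comparisons, and calls were made under an adjusted p of 0.05. The script was tested on simulated data. Alternatives left out each library in turn, fitted only the groups compared, took the replicate number as a block, scaled TPM by median of ratios (over genes above 0 in all libraries), used a pseudocount of 0.1 TPM, or filtered at 5 TPM or not at all.

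The members, lists and tests were chosen with earlier results of these data known, and no set test was made. Values in every library were to be given for 24 fixed members and for any member at the extreme of its role group in a comparison. From each comparison list at most 4 genes with the lowest adjusted p were to be named. Orc3, Pold4, E2f1, E2f4 and Tk2 were named beyond that rule. Promoters came from RefSeq and were matched by symbol.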

Additional observations from a re-analysis of the deposited data

How the results depend on the processing

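Each count of called members was recomputed under 21 alternatives, 1 of them chosen after seeing the data, in which knockdown 0 h library 2 and control 36 h library 4 were both left out. That alternative called 36 members lower at 0 h, 20 at 36 h, and 3 higher over time in the knockdown. Of 14093 tested genes it called 2028, 910 and 182 in the same directions. For the 35 members lower at 0 h, the count was 21 with no filter and 0 with only the groups compared. The tested genes called lower in these fits were 1015 of 35924 and 9 of 14426. For the 3 members lower at 36 h, the count was 1 with a pseudocount of 0.1 TPM and 1 with no filter. It was 7 with median-of-ratios scaling, 25 with only the groups compared, and 26 with that scaling and without knockdown 0 h library 2. In that order, 154 of 14426, 118 of 35924, 484 and 1367 of 14426, and 1390 of 14227 tested genes were called lower. For the 1 member higher over time in the knockdown the count was 0 with no filter and 0 with only the groups compared. It was 2 with the scaling, and 2 with the scaling and without library 2. In these fits 96 of 35924, 15 and 175 of 14426, and 260 of 14227 tested genes were called higher. Leaving out 1 library in turn gave 15 to 43 at 0 h, 0 to 30 at 36 h and 0 to 17 over time in the knockdown, the libraries behind these ends being named beside each result above. The other counts, of 0, stayed at 0 in every alternative.

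With the replicate block, 21 members were called lower at 0 h, 0 at 36 h and 0 higher over time in the knockdown. Of 14426 tested genes, 835, 3 and 35 were called in these directions. With the block and the scaling 22 members were called lower at 0 h and 0 at 36 h, beside 876 and 15 tested genes. Same-numbered libraries did not deviate together: over 15 pairs the correlation of deviations ran from -0.29 to 0.13, with 2 over 0.1, so the numbers were not taken to pair samples.

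Of 109 log2 fold changes named, 8 changed sign in at least 1 alternative, and none of the 8 was called with all libraries. At 0 h, Pola1 was 0.33 with the scaling, with or without the block, and ran from -0.79 without knockdown library 2 to 0.48 without knockdown library 1 when 1 library was left out. It was also 0.017 without control library 1 and 0.021 without knockdown library 3. Rfc1 was 0.047 with the scaling, with or without the block. Dut was 0.23 with the scaling, with or without the block, 0.25 with the scaling and without library 2, and 0.069 without library 2, alone or with control 36 h library 4, and its lowest value was -0.44 without knockdown library 1. Gins2 was 0.020 with the scaling and without library 2. At 36 h, Gins2 ran from -0.023 without knockdown library 1 to 0.21 without knockdown library 3, and was -0.0028 without control library 4, alone or with knockdown 0 h library 2. Gins4 was 0.039 with the block, with or without the scaling. Dut was 0.027 with the scaling and 0.029 with the scaling and without library 2. Over time in the knockdown, Pola1 ran from -1.20 without knockdown 0 h library 1 to 0.065 without library 2, where it was 0.00014 with the scaling. The causes were not tested. Depth is unknown for TPM, so what it limits could not be assessed.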
